A study of Mus musculus with 12 samples.

Results

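The imprinted growth-control genes examined were H19, Igf2, Peg3, Mest, Plagl1, Dlk1, Meg3, Rian, Grb10 and Peg10, which are 10 of the 34513 genes in the count table. They were chosen by gene symbol from a list drawn up when their untreated levels in each line and their changes with SX-682 were already known, so these levels and changes are given as a description and carry no test. The RNA-seq libraries came from cultures of 3 mouse cell lines: Melan-A, a nontumorigenic melanocyte line, and the melanoma lines B16F0 and B16F10, which share an origin and of which B16F10 is the more metastatic. Each line had 2 control libraries, labelled as having no treatment, and 2 libraries after SX-682, an inhibitor of the chemokine receptors CXCR1 and CXCR2, which gives 12 libraries in 6 groups. The dose and duration of SX-682 in these cultures are not given in the sources used here. Each line is a single cell line, so a difference between lines cannot be told apart from other differences between those cultures, and nothing states that the 2 libraries of a group came from separate cultures, so their spread may be technical.

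Imprinted genes are transcribed mainly from a single parental allele, according to DNA methylation that is set in the germline at control regions and kept through cell division afterwards. They lie in clusters in which a paternally expressed gene such as Igf2 or Dlk1 is often paired with a maternally expressed noncoding RNA such as H19 or Meg3. Many of them act on fetal and placental growth: the ligand IGF2 promotes growth, and the adaptor GRB10 restrains insulin and IGF receptor signalling. The libraries count reads of both alleles together, so which allele a transcript came from was not measured here.

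Promoter sequences of RefSeq (GRCm38.p6) are shown for 4 of the genes. Each stretch is taken from the 250 bases before an annotated start site, trimmed to those outside every exon of GENCODE M21, and they are shown because Mest and Plagl1 were transcribed in all 3 lines while Peg3 and Grb10 were transcribed in Melan-A and at or near 0 in both B16 lines. Capitals mark TGCCGC on either strand, the hexamer bound by ZFP57, a zinc finger protein that protects methylated imprints. The hexamer was present in the 250 bases before the start in 8.68% of 32817 RefSeq promoters.
Mest, chr6:30737800-30738049, plus strand: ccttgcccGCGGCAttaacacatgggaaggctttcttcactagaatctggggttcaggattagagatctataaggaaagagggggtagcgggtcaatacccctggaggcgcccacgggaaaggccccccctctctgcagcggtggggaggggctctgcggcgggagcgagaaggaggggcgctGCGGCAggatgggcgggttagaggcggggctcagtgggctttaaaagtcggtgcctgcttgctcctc
Plagl1, chr10:13090582-13090690, plus strand: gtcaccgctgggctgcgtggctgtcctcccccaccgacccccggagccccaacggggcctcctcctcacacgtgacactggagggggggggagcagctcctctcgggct
Peg3, chr7:6730432-6730577, minus strand: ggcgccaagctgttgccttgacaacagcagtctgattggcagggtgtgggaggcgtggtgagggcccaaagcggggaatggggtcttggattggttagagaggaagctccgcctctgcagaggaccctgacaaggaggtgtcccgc
Grb10, chr11:12037421-12037670, minus strand: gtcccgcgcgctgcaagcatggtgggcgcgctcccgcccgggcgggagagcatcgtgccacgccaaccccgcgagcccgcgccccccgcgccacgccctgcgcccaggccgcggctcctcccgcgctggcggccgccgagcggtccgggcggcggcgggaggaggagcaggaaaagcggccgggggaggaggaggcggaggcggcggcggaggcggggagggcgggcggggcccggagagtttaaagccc

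The Mest stretch held 2 copies of the hexamer and 14 CpG dinucleotides in its 250 bases, while the window before the upstream Mest start held 0 copies and 7 CpG. The whole 250 bases before the Plagl1 start held 1 copy, outside the 109 bases shown, and those before Peg3 and this Grb10 start held none. Among windows not shown, that of the first Meg3 start held 1 copy, though Meg3 was not above 3 counts in any library. Those of the second Meg3 start and of Igf2, Dlk1 and Rian held 0. Whether the hexamer bears on the levels was not tested. GGGGCCCC, a sequence bound by PLAGL1, was present in the 250 bases before the start of Peg3, outside the stretch shown, and in 0.884% of the promoters. Grb10 had 40 CpG in 250 bases, and 98.7% of the promoters had fewer, while the window before its other RefSeq start had 8 and 57% had fewer. These matches describe letters in the reference genome, and no binding or methylation was measured. The start sites of Peg3 and of Usp29, the oppositely transcribed neighbour, lie 164 bases apart.

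H19 contains Mir675 in an exon, and Mir335 lies within Mest. Their mature sequences are shown because H19 had the highest level and Mest the largest SX-682 change of the 10 genes in Melan-A, and capitals mark the seed, bases 2 to 8.
mmu-miR-675-5p: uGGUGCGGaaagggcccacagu
mmu-miR-675-3p: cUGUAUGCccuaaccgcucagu
mmu-miR-335-5p: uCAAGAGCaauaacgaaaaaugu
mmu-miR-335-3p: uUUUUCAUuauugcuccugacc

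No 2 of these 4 share a seed, and no other mature mouse microRNA in the RefSeq table has any of them. The libraries are not small-RNA libraries: the Mir335 row held 2 counts over both untreated Melan-A libraries, 1 after SX-682 and 1 over the 8 B16 libraries, so mature microRNA levels were not measured.

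The labelled cell types were checked against marker genes. Sox10, the neural crest transcription factor, was at 670.1 TMM-scaled CPM (mean of 2 libraries) in untreated Melan-A, 452.6 in B16F0 and 585.7 in B16F10. The 10 melanocyte markers summed to 1351 to 1382 CPM in the untreated Melan-A libraries against 19280 to 25150 in the untreated B16 libraries. In untreated Melan-A, Dct (354.6 CPM), Mlana (116.5), Tyrp1 (106.9) and Mitf (102.1) were present, while Tyr (0.826), Kit (0.0857) and Ednrb (0.0782) were near 0. Kit was at 0 in untreated B16F10 too, and Ednrb had at most 3 counts in any B16 library. The 7 fibroblast markers summed to 114.5 to 116 CPM in untreated Melan-A, 93.87 to 95.52 after SX-682 and 8.434 to 16.7 in the untreated B16 libraries, with 2 of the 7 higher and 5 lower in untreated B16F0 than in Melan-A and 1 and 6 in B16F10. Over all genes, 35.3% were higher and 40.6% lower in B16F0, and 33.4% and 40.8% in B16F10. Dcn and Lum had at most 3 counts in any B16 library, while Col1a2 was higher in B16, at 2.36 CPM in B16F0 and 5.14 in B16F10 against 0.764 in Melan-A, and Pdgfra was at 8.11 and 1.33 against 4.0 CPM. Summed keratinocyte, immune and endothelial markers did not exceed 7.192 CPM in any library, and the skeletal muscle sum, 64.9 to 70.01 CPM in untreated Melan-A and 8.665 to 19.47 in untreated B16, was nearly all Des (67.1 CPM in Melan-A), with Myod1, Myog, Ckm and Acta1 at 0.0681 to 0.153 CPM there. Whether these marker differences bear on the levels below was not tested. In bulk RNA, fewer cells of a type and less RNA per cell cannot be told apart.

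**Figure D1:**
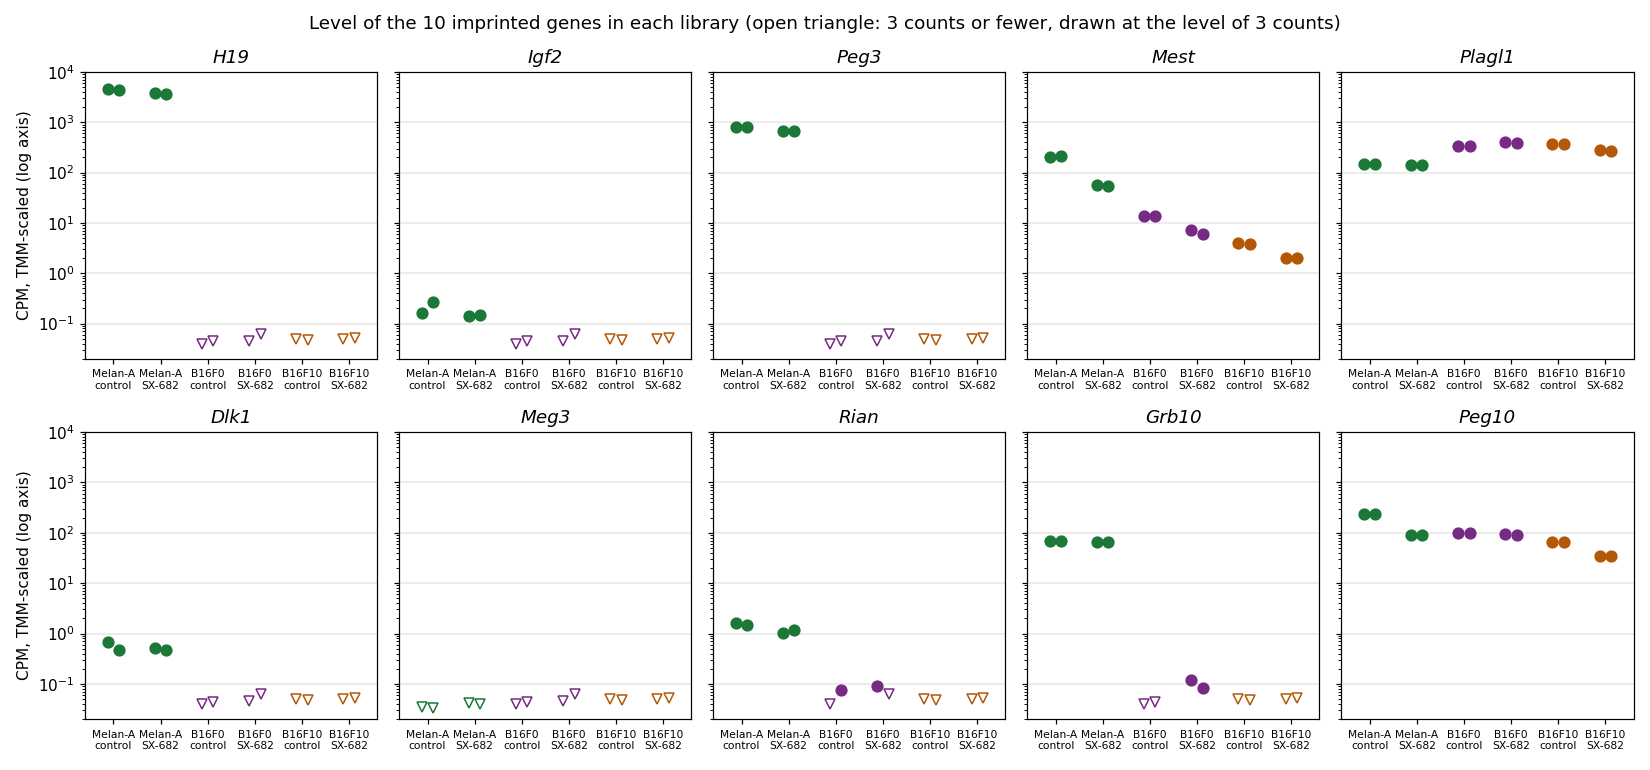
Level of each of the 10 genes in each library, as TMM-scaled CPM on a log axis, with 1 point per library and 2 libraries per group; an open triangle marks a library with 3 counts or fewer, drawn at the level that 3 counts have in that library. Mest, Plagl1 and Peg10 were above that limit in all 12 libraries, while H19, Igf2, Peg3 and Dlk1 were above it in Melan-A and in no B16 library.

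In the untreated lines, 5 of the 9 genes with at least 10 counts in both Melan-A controls had at most 3 counts in each of the 4 B16 controls: H19, Igf2, Peg3, Dlk1 and Grb10. Over all genes, 1021 of the 16202 genes with that Melan-A level met the same limits (6.30%). Rian was close to 0 in B16, Meg3 was not above 3 counts anywhere, and Mest, Plagl1 and Peg10 were transcribed in all 3 lines. Per kilobase of exon, the order in untreated Melan-A was H19 (1809 ± 43.2 CPM per kb, SD, n = 2), Peg3 (58.82 ± 1.2), Mest (53.3 ± 1.06), Peg10 (35.8 ± 0.503), Plagl1 (18.9 ± 0.0482) and Grb10 (7.71 ± 0.0152), each further from its neighbour than their summed SDs. Dlk1, Rian and Igf2 followed at 0.1002, 0.04895 and 0.03725 CPM per kb, and Rian and Igf2 did not differ beyond their spread. In both untreated B16 lines the order was Plagl1, Peg10 and Mest.

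H19, a maternally expressed noncoding RNA (ENSMUSG00000000031.16, chr7:142575529-142578143, minus strand), had 390669 and 397417 counts in the untreated Melan-A libraries. The B16F0 controls held 2 and 0 counts and the B16F10 controls 0 and 0, and no B16 library with SX-682 exceeded 3. H19 alone took 0.473% of all counts in untreated Melan-A and ranked 4 of all genes per kilobase. Its rate was at least 92180-fold higher in untreated Melan-A than in B16F10, where the limit is 3 counts per library, and the ratio to B16F0 was 316100 with an exact 95% counting interval of 87510 to 2610000. Such intervals cover counting error only.

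Igf2, the growth factor gene next to H19 (ENSMUSG00000048583.16, chr7:142650766-142666816, minus strand), was barely transcribed in Melan-A, with 14 and 24 counts, and had 0 in every B16 library. Its level is uncertain, since 62.8% of its exonic bases also belong to Gm49394 on the same strand, which had 107 and 109 counts in the untreated Melan-A libraries, 53 and 61 with SX-682, and 0 in every B16 library. Both gene models were therefore seen in Melan-A only, at a level far under that of H19. Untreated Melan-A exceeded B16F0 at least 5.04-fold and B16F10 at least 4.42-fold for Igf2.

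Peg3, a paternally expressed zinc finger gene (ENSMUSG00000002265.17, chr7:6703892-6730431, minus strand), had 70147 and 71710 counts in untreated Melan-A and 0 or 1 in every B16 library. The ratio of untreated Melan-A to B16F0 was 113800 (95% counting interval 20430 to 4495000) and that to B16F10 was 99580 (17870 to 3933000). Usp29, which starts next to Peg3 on the other strand, had 1071 to 1168 counts in untreated Melan-A, and its 8 B16 libraries held 0 except for a single one with 1 count. Both genes of this promoter pair thus followed the same pattern of presence.

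Grb10, the adaptor that restrains insulin and IGF receptor signalling (ENSMUSG00000020176.17, chr11:11930508-12038683, minus strand), had 6039 and 6372 counts in untreated Melan-A and 1, 0, 1 and 0 in the 4 B16 controls. The ratio to B16F0 was 9957 (95% counting interval 1787 to 393300) and that to B16F10 was 8713 (1563 to 344200). Its neighbours Ddc and Cobl were likewise lower, at 24.4 and 7.74 CPM in untreated Melan-A and 0.07951 and 0.02002 CPM in B16F0.

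In the Dlk1-Meg3 cluster on chromosome 12, the paternally expressed ligand gene Dlk1 (ENSMUSG00000040856.17, chr12:109452823-109463336, plus strand) had 58 and 42 counts in untreated Melan-A and 0 in every B16 library, at least 13.4-fold higher than in B16F0 and at least 11.75-fold higher than in B16F10. The noncoding RNA Rian (ENSMUSG00000097451.11, chr12:109603808-109661716, plus strand) had 142 and 135 counts in untreated Melan-A against 0 and 5 in B16F0 (ratio 44.45, 95% counting interval 18.82 to 138) and 0 and 1 in B16F10 (194.5, 34.61 to 7708). Meg3 (ENSMUSG00000021268.17, chr12:109541001-109571726, plus strand), the first noncoding RNA of the same cluster, had 1 and 2 counts in untreated Melan-A and 0 in the other 10 libraries, so it was not tested and no fold is given. Rtl1, a retrotransposon-derived gene between Meg3 and Rian, had 1420 and 1425 counts in untreated Melan-A, more than Dlk1, and 0 in the 4 B16 controls. Rtl1 is overlapped by microRNA precursors on the opposite strand and the strand used in counting is not given, so its reads cannot be assigned to a strand. The span and length of Rian in the count table differ from those in GENCODE M21, and its level per kilobase rests on the table's length of 31981 bases.

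Mest, a paternally expressed hydrolase-fold gene (ENSMUSG00000051855.15, chr6:30723547-30748465, plus strand), was transcribed in all 3 lines with non-overlapping levels. The untreated libraries had 207.5 and 213.4 CPM in Melan-A, 13.51 and 13.93 in B16F0 and 3.919 and 3.755 in B16F10. These correspond to log2 differences of -3.94 ± 0.050 (SE) for B16F0 minus Melan-A, -5.78 ± 0.061 for B16F10 minus Melan-A and -1.84 ± 0.079 for B16F10 minus B16F0. Of the exonic bases of Mest, 23.1% overlap Copg2 on the opposite strand, and Copg2 was higher in both B16 lines, the opposite direction. The strand used in counting is not given, so reads in the shared bases cannot be assigned to either gene. In untreated B16F10 Mest was at 3.837 CPM beside 144.7 for Copg2, and the part of shared reads in the Mest levels was not tested.

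Peg10, a retrotransposon-derived gene needed for the placenta (ENSMUSG00000092035.8, chr6:4747306-4760517, plus strand), was also lower in B16. It had 240.9 and 236.2 CPM in untreated Melan-A, 98.94 and 100.4 in B16F0 and 64.39 and 65.05 in B16F10, with log2 differences from Melan-A of -1.26 ± 0.029 and -1.88 ± 0.031. Plagl1, a zinc finger transcription factor that slows proliferation (ENSMUSG00000019817.18, chr10:13060504-13131694, plus strand), was the only one of the 9 tested genes that was higher in untreated B16F0 and B16F10 than in Melan-A. Its CPM was 148.3 and 147.8 in Melan-A, 339.7 and 338.8 in B16F0 and 364.1 and 373.6 in B16F10, with log2 differences from Melan-A of 1.196 ± 0.024 and 1.317 ± 0.024.

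Counted by the edgeR threshold of an adjusted p under 0.05, 1 of the 9 genes was higher and 8 were lower in untreated B16F0 than in Melan-A, where 35.3% and 40.6% of 18338 genes were. For B16F10 against Melan-A the counts were also 1 and 8, where 33.4% and 40.8% of genes were higher and lower. For B16F10 against B16F0 they were 1 and 2, namely Plagl1 (0.12 ± 0.023), Mest and Peg10 (-0.62 ± 0.032), where 30.8% and 31.2% of genes were. Meg3 did not pass the filter on low counts, the genes had been chosen with these contrasts known, and nothing is read from the counts.

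**Figure D2:**
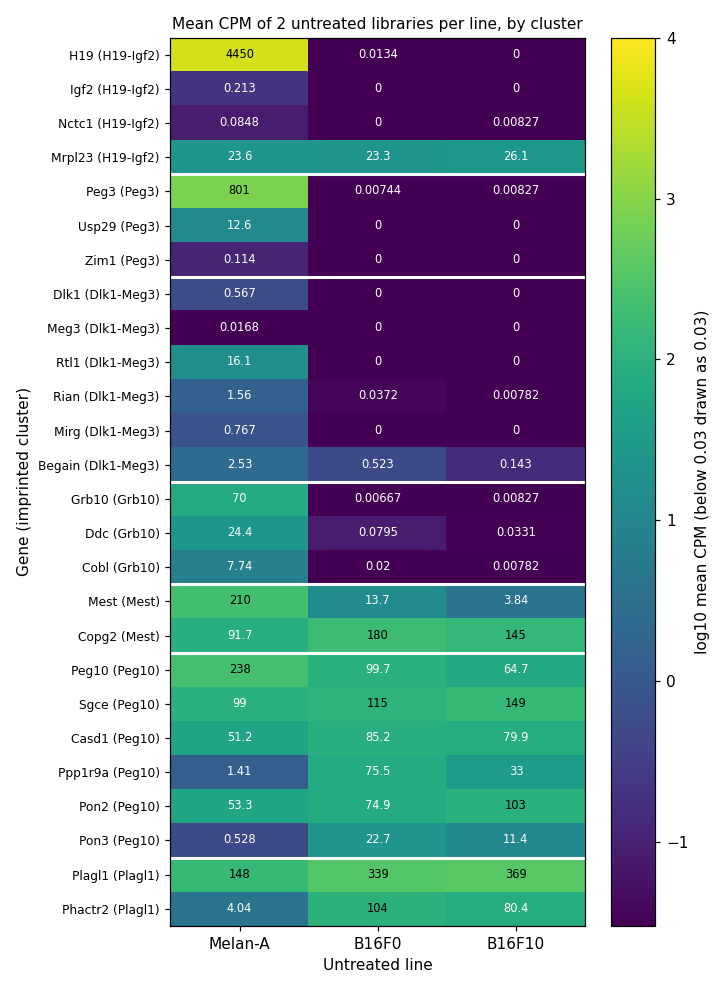
Mean level in untreated Melan-A, B16F0 and B16F10 (columns, 2 libraries each) of the chosen genes and their neighbours (rows, grouped by imprinted cluster), with the mean CPM printed in each cell and colour giving its log10. Rtl1, Usp29, Ddc and Cobl were at or near 0 in B16 like the chosen genes beside them, while Mrpl23 was not. Copg2, Sgce, Casd1, Pon2, Ppp1r9a, Pon3 and Phactr2 were higher in both B16 lines, the last 3 by the most.

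Rtl1, Usp29, Ddc and Cobl above were named after their values were seen. Of 27 listed neighbours in the same clusters, 23 were in the table and 15 passed the filter. Against untreated Melan-A, 7 were higher and 6 lower in B16F0, beside 35.3% and 40.6% of all genes. In B16F10 8 were higher and 7 lower, beside 33.4% and 40.8%. Their median log2 differences were -0.02 and 0.15 beside -0.06 and -0.10 over all genes. The neighbours with the largest excess in B16 were Ppp1r9a, a neuronal scaffold gene beside Peg10 (5.75 ± 0.079 in B16F0 and 4.55 ± 0.086 in B16F10), Pon3, a paraoxonase gene of the same cluster (5.41 ± 0.13 and 4.42 ± 0.14), and Phactr2 beside Plagl1 (4.70 ± 0.062 and 4.32 ± 0.064), with adjusted p of at most 4.89e-22. Genes named by the size of these same changes, here and below, have adjusted p that describe the fit and are not independent support. The limits that H19, Igf2, Peg3, Dlk1 and Grb10 met were met by 4 of the 14 neighbours with 10 counts in Melan-A: Rtl1, Mirg, Usp29 and Cobl, named after their values were seen. Over all genes at that Melan-A level the share was 6.30%. Cluster by cluster, Sgce, which shares the Peg10 promoter region, was higher in B16, at 114.7 CPM in B16F0 and 148.9 in B16F10 against 98.98 in Melan-A (log2 differences from Melan-A of 0.21 ± 0.030 and 0.59 ± 0.030, adjusted p = 2.1e-07 and 3.14e-17), and Mrpl23 downstream of H19 was at 23.58, 23.29 and 26.10 CPM.

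Among imprinted genes of other clusters, 29 of 38 in the table were tested, and 7 were higher and 19 lower in untreated B16F0 than in Melan-A, beside 35.3% and 40.6% of all genes, and 10 were higher and 17 lower in B16F10, beside 33.4% and 40.8%. Their median log2 differences were -0.45 and -0.18, beside -0.06 and -0.10 over all genes. The limits were met by 4 of 28, beside 6.30% of all genes at that Melan-A level: Kcnq1, Mkrn3, Peg12 and Slc38a4, again named after their values were seen. Peg12, for example, had 1742 and 2034 counts in untreated Melan-A and 0 in all 8 B16 libraries. The noncoding RNA Kcnq1ot1, whose reads cannot be told apart from those of the opposite strand, was at 6.02 CPM in Melan-A, 1.07 in B16F0 (log2 difference -2.49 ± 0.18, adjusted p = 1.98e-13) and 2.003 in B16F10 (-1.59 ± 0.17, 1.04e-09), and Peg13 was higher by 1.92 ± 0.074 and 3.62 ± 0.069 (adjusted p = 5.09e-20 and 8.33e-28). Igf2r, the receptor that clears IGF2, was at 510.9, 496.4 and 555.5 CPM.

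**Figure D3:**
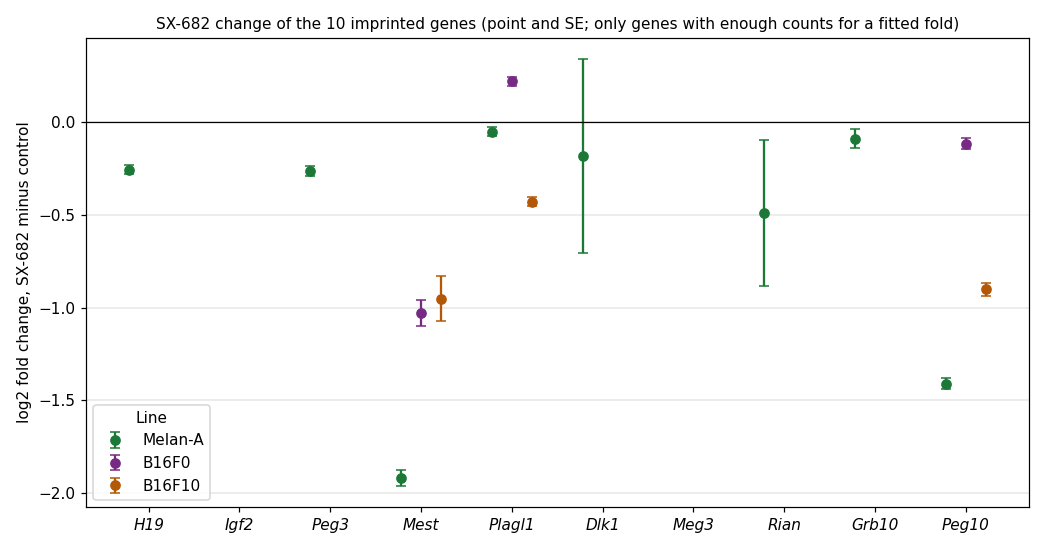
Log2 fold change with SX-682 minus control in each line, as fitted value and standard error, for the genes with enough counts for a fitted fold; Igf2 and Meg3 have none. Mest and Peg10 lie below 0 in all 3 lines, while Plagl1 lies above 0 in B16F0 (0.22) and below it in B16F10 (-0.43).

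With SX-682, Mest and Peg10 were lower in all 3 lines, and every SX-682 library lay below both controls of its line. Mest went from 207.5 and 213.4 CPM to 56.70 and 54.55 in Melan-A, from 13.51 and 13.93 to 7.316 and 5.941 in B16F0, and from 3.919 and 3.755 to 1.979 and 1.983 in B16F10. The log2 fold changes were -1.92 ± 0.042 (SE), -1.03 ± 0.072 and -0.95 ± 0.12, so the change in Melan-A exceeded that in B16F0 by 0.89 ± 0.083 and the B16 lines differed by 0.08 ± 0.14. In terms of order, Mest fell from the third to the fourth level per kilobase in Melan-A, next to Peg10, and stayed below Peg10 in B16.

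Copg2, which overlaps the end of Mest on the opposite strand, moved the other way in each line, with reads in the shared bases not assignable to a strand. Its log2 fold changes, for Melan-A, B16F0 and B16F10 in turn, were 0.19 ± 0.028, 0.39 ± 0.026 and 0.52 ± 0.027 (adjusted p = 6e-07, 1.93e-13 and 2.26e-16).

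Peg10 went from 240.9 and 236.2 CPM to 90.69 and 88.89 in Melan-A, from 98.94 and 100.4 to 92.87 and 90.98 in B16F0, and from 64.39 and 65.05 to 34.61 and 34.69 in B16F10. The log2 fold changes were -1.41 ± 0.029, -0.12 ± 0.031 and -0.90 ± 0.035, so Peg10 hardly moved in B16F0. Sgce, beside it, changed by 0.01 ± 0.030 in Melan-A (adjusted p = 0.794) and rose by 0.16 ± 0.029 in B16F10 (1.84e-05).

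Plagl1 was 148.3 and 147.8 CPM in untreated Melan-A and 143.8 and 142.0 with SX-682, a log2 fold change of -0.05 ± 0.025. In B16F0 it went from 339.7 and 338.8 to 396.1 and 393.8 CPM (0.22 ± 0.024), and in B16F10 from 364.1 and 373.6 to 276.0 and 271.9 (-0.43 ± 0.024). The groups did not overlap within either B16 line, and the change in B16F10 was 0.65 ± 0.033 below that in B16F0.

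In Melan-A, where the other genes were present, H19 had 4525 and 4375 CPM without and 3743 and 3707 with SX-682, a log2 fold change of -0.26 ± 0.026. Peg3 had 812.4 and 789.3 CPM without and 664.9 and 667.7 with SX-682 (-0.27 ± 0.026). Both were lower in both treated libraries than in either control. The summed fibroblast markers were lower there too, 4 of 7 of them called, beside 24.7% of all genes. The keratinocyte sum (5.504 to 6.023 CPM without and 3.296 to 3.543 with SX-682) and the immune sum (7.177 to 7.192 and 4.489 to 4.951) were also lower. Of 9 melanocyte markers tested, 3 were raised and 5 lowered in Melan-A, beside 23.4% and 24.7% of all genes. In B16F0 and B16F10 8 of the 9 were lowered, beside 25.0% and 25.3%. The endothelial sum in Melan-A was higher with SX-682 (1.448 to 1.717 CPM without and 2.078 to 2.426 with), with 0 of 3 tested markers called. The part of these markers in the result was not tested. Grb10 was 69.94 and 70.14 without and 65.38 and 66.32 with SX-682 (-0.09 ± 0.050).

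In Melan-A the fit of all 12 libraries called no SX-682 change for the low genes. Igf2 counts were 14 and 24 against 10 and 11 (ratio of control to SX-682 1.495, 95% counting interval 0.855 to 2.68), Dlk1 counts 58 and 42 against 37 and 36 (log2 fold change -0.18 ± 0.52, which turned to 0.11 without control replicate 1), and Rian counts 142 and 135 against 73 and 90 (-0.49 ± 0.39). A change within these limits was not resolved here. For Rian, both SX-682 libraries (1.024 and 1.199 CPM) lay below both controls (1.645 and 1.486 CPM). Its SE came from the fit of all 12 libraries, so depth alone is not shown to be the limit. In B16F0, Grb10 had 1 and 0 counts in controls and 8 and 4 with SX-682, a ratio of 14.96 with a counting interval of 2.21 to 639.5, on levels of 0.121 and 0.0831 CPM with SX-682, far below those in Melan-A.

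By the same threshold, SX-682 left 0 of the 9 genes higher and 4 lower in Melan-A (H19, Peg3, Mest and Peg10), where 23.4% of all genes were higher and 24.7% lower. In B16F0 2 were higher (Plagl1 and Grb10, the latter on 12 counts against 1 and lost with only the groups compared in the fit, adjusted p = 0.0559) and 2 lower (Mest and Peg10), where 25.1% and 25.0% of genes were. In B16F10 0 were higher and 3 lower (Mest, Plagl1 and Peg10), where 25.5% and 25.3% were. The contrasts were known when the genes were chosen, so these counts are not evidence of a direction.

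**Figure D4:**
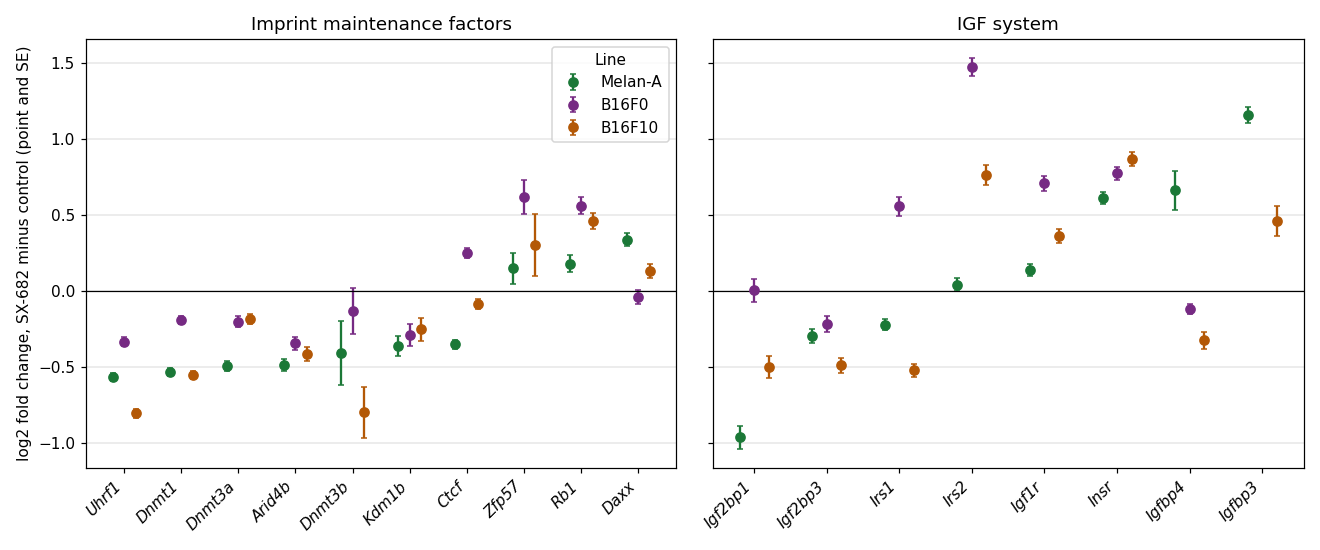
Log2 fold change with SX-682 minus control (fitted value and standard error) in each line for the imprint maintenance factors (left) and the genes of the IGF system (right) that the naming rule picked; Igfbp3 has no B16F0 point because it had 0 counts there. Uhrf1 and Dnmt1 lie below 0 and Insr above 0 in all 3 lines, while Irs1 lies on both sides of 0.

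Genes listed as imprint maintenance factors, only some of which keep methylation at the control regions, numbered 18 tested of 20 in the table. Of the 18 with 10 counts in Melan-A, 0 met the limits of presence in Melan-A and absence in B16, beside 6.30% of all genes at that level. Zfp57 was lower in untreated B16F0 (7.13 CPM) and B16F10 (1.23 CPM) than in Melan-A (12.9 CPM), by log2 differences of -0.86 ± 0.11 and -3.39 ± 0.15 (adjusted p = 3.44e-08 and 6.45e-19). Its partner Trim28 was lower in B16F0 (-0.68 ± 0.024, 5.48e-21) but at 363.9 CPM in B16F10 beside 369.1 in Melan-A. The de novo methyltransferase Dnmt3b was higher in B16F0 (2.38 ± 0.17, 2.11e-13) and B16F10 (1.96 ± 0.18, 3.37e-11). Of the 18, 7 were higher and 9 lower in untreated B16F0 than in Melan-A, and 7 and 7 in B16F10. The shares over all genes were 35.3% and 40.6% in B16F0 and 33.4% and 40.8% in B16F10. Median log2 differences were -0.08 and -0.01, beside -0.06 and -0.10 over all genes. With SX-682, 2 of the 18 rose and 11 fell in Melan-A, 5 and 7 in B16F0, and 3 and 12 in B16F10. Of all genes, 23.4% rose and 24.7% fell in Melan-A, 25.1% and 25.0% in B16F0, and 25.5% and 25.3% in B16F10. The median log2 fold changes of the 18 were -0.25, -0.06 and -0.19 beside 0 over all genes.

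Dnmt1, the maintenance methyltransferase, fell in Melan-A by 0.53 ± 0.025 on the log2 scale, by 0.19 ± 0.025 for B16F0 and by 0.55 ± 0.025 for B16F10, and Uhrf1, which brings DNMT1 to replicated DNA, fell by 0.57 ± 0.028, 0.33 ± 0.027 and 0.81 ± 0.028. The fall differed among the lines for both (adjusted p = 5.09e-10 and 1.73e-10, F-test of the interaction). Rb1 rose in all 3 lines (0.18 ± 0.058, 0.56 ± 0.055 and 0.46 ± 0.053), but in Melan-A the call was lost without control replicate 1 (0.10, adjusted p = 0.219) or SX-682 replicate 2 (0.16, 0.0794).

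Of the IGF system, 18 of 20 genes in the table were tested. Against untreated Melan-A, 1 was higher and 13 lower in B16F0, and 4 were higher and 13 lower in B16F10, with median log2 differences of -2.61 and -1.54. Over all genes the medians were -0.06 and -0.10, with 35.3% higher and 40.6% lower in B16F0 and 33.4% and 40.8% in B16F10. Irs4, Igfbp2 and Igfbp5, named after their values were seen, met the limits of presence in Melan-A and absence in B16. They were 3 of the 16 IGF genes with 10 counts in Melan-A, beside 6.30% of all genes at that level. Igf1r was at 112.6 CPM in untreated Melan-A, 21.99 in B16F0 and 42.84 in B16F10, and the substrate Irs1 at 156.4, 8.88 and 48.6 CPM. With SX-682, 7, 7 and 6 of the 18 rose and 3, 2 and 5 fell in Melan-A, B16F0 and B16F10, where between 23.4% and 25.5% of all genes rose and between 24.7% and 25.3% fell. The insulin receptor gene Insr rose in each (0.61 ± 0.042, 0.77 ± 0.043 and 0.87 ± 0.046; adjusted p of at most 2.36e-13), and Irs2 rose in B16F0 (1.47 ± 0.057, 4.66e-19) and B16F10 (0.76 ± 0.064, 1.5e-11).

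The genes whose pattern over the 12 libraries was most like that of each chosen gene were found by the root mean square difference of log2 CPM after centring each gene. For Peg3 these were Tnnt3 (0.405) and Cdkn2a (0.848), for Mest Mme (0.458) and P2ry1 (0.529), for Peg10 Chd7 (0.289) and Naalad2 (0.306), for Grb10 Grifin (0.524) and Slc7a2 (0.555), and for H19 Peg3 (1.21) and Tnnt3 (1.31). Plagl1, with a narrow range of 1.48 log2 units, had 2862 genes within 0.5, led by Sox11 (0.081) and Vps13c (0.102). For the low genes the nearest were Gm15457 and Gal3st1 for Igf2, Gm45351 and 4930401A07Rik for Dlk1, and Gm20234 and Kcnq1 for Rian, with 386, 219 and 3 genes within 0.5. The 12 points of each pattern share lines and groups, and the likeness has no test.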

How the data were processed

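RNA-seq counts per gene were analysed for 12 libraries. The submitters' processing notes name cutadapt, STAR, DESeq2 and mm10 without versions; the counting program and its strand setting are not given in the sources used here. The deposited values are raw counts per gene, which the authors had not normalized. No value column was left out.

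The members and the other gene lists were chosen with earlier results of these data known. Counts of all 12 libraries were fitted in 1 model with 1 mean per group (edgeR 4.0.16 in R 4.3.3, TMM scaling, filterByExpr, quasi-likelihood test, prior count 0.125), and p-values were adjusted by Benjamini-Hochberg over the 18338 genes kept, with a threshold of 0.05. With 2 libraries against 2, a two-sided exact permutation test cannot go below 0.333, so none was used. Levels are TMM-scaled CPM, and a library at or under 3 counts was treated as at the floor, 0.0330 to 0.0623 CPM. A group at 0 gives a lower bound against that floor, and groups of few counts a ratio with an exact 95% interval. Library totals ran from 48876982 to 85322092 counts. No pair of replicates agreed within counting noise (chi-square per gene 2.865 to 5.255). All members were named in every contrast, and from each other list the 3 largest called changes in each direction with a mean log2 CPM of at least 0. Adjusted p of genes named by that rule are therefore not independent support. The fitting code was tested on simulated data. Exons came from GENCODE M21 (Python 3.11.15, matplotlib 3.10.9), matched by gene ID for all 10 members, of which 9 had the same span. Promoter and microRNA sequences came from RefSeq tables of GRCm38.p6, and 8 of 10 members had a promoter entry. Alternatives were DESeq2 1.42.0, RLE scaling, other filters, only the groups compared, a replicate block, prior count 2, a test against a 1.2-fold change, and each library left out.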

Additional observations from a re-analysis of the deposited data

Results flagged for a closer look

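Fitted changes in opposite directions between lines stood out for 2 of the imprinted genes and for 6 genes of the other lists. The log2 fold changes of Plagl1 were -0.051 (Melan-A), 0.22 (B16F0) and -0.43 (B16F10), with every SX-682 library outside the range of its controls. Grb10 had a value of -0.089 in Melan-A, where it was not called, and its B16F0 SX-682 to control ratio was 14.96 on 12 counts against 1. No test of these 2 differences is given, since the genes were chosen with their changes known, and their difference was not tested on other samples.

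For the other lists the difference among lines was tested by the interaction F-test of the edgeR fit. Of 38 named genes, 31 had a called difference, and 6 of these were called in opposite directions. The lists were drawn up with earlier results of these data known, and the 6 genes were picked by these same calls. Their adjusted p therefore describe the fit and are not independent support. Ppp1r9a went by -0.41 in Melan-A and 0.20 in B16F0 (adjusted p = 0.00253). In Melan-A it had 1.54 and 1.277 CPM without and 0.7994 and 1.305 with SX-682, so the groups overlapped, and the call was lost without SX-682 replicate 1 (-0.11, adjusted p = 0.678) or control replicate 1 (-0.27, 0.298). Kcnq1ot1 went by -0.64 in Melan-A and 1.02 in B16F0 (7.58e-06), and its Melan-A call was lost without SX-682 replicate 2 (-0.43, adjusted p = 0.0685). For Igfbp4 the values of Melan-A, B16F0 and B16F10 were 0.66, -0.12 and -0.32 (3.61e-06). Irs1 went by -0.22, 0.56 and -0.52 (5.08e-12), H13 by 0.20, -0.42 and -0.40 (6.95e-13), and Ctcf by -0.35, 0.25 and -0.086 (9.49e-12). The B16F10 call of Ctcf was lost without control replicate 2, SX-682 replicate 1 or SX-682 replicate 2 (-0.088 to -0.076, adjusted p = 0.0674 to 0.12). A difference among lines was called for 7 of 15 neighbours, 16 of 29 imprinted genes of other clusters, 12 of 18 maintenance factors and 12 of 18 IGF genes, which is 46.7%, 55.2%, 66.7% and 66.7%, beside 47.4% of all genes.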

How the results depend on the processing

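Of the changes of single imprinted genes, 307 of 315 values over all alternatives kept their direction and their side of the threshold, and of the counts of these genes called, 152 of 161 stayed within 1.5 times. Among the remaining single-gene values, 6 lost their call, 1 gained a call and 1 turned direction. With at least 10 counts asked for in every library, 3 of the genes could be tested, and 2 were lowered in Melan-A and 1 raised in B16F0 with SX-682, and 2 were lower in each untreated B16 line; the smaller numbers follow from the genes removed. With only the groups compared in the fit, 5 were lowered in Melan-A against 4 in the main fit. In B16F0 that setting left 1 raised, since Grb10 no longer passed (adjusted p = 0.0559). Tested against a 1.2-fold change, SX-682 changed 3923, 4450 and 5127 genes in Melan-A, B16F0 and B16F10. Of the imprinted genes, that test lowered 2 in Melan-A, and in B16F0 it raised 1, Grb10 on 12 counts against 1, and lowered 1. With SX-682, H19 and Peg3 in Melan-A and Plagl1 and Peg10 in B16F0 changed by too little to pass it. It left 0 higher in untreated B16F10 than in B16F0, where Plagl1 differed by a log2 value of 0.12. Without Melan-A control replicate 1, Dlk1 turned to a log2 fold change of 0.11, and without replicate 2 it was -0.43.

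Asking for 0 counts in the B16 controls left 2 of 9 genes present in Melan-A only, beside 2.94% of all genes, and allowing 10 counts gave 6 of 9, beside 10.9%; both limits were chosen after seeing the data. Samples of a line with the same number did not deviate together (r of -0.03, -0.01 and -0.01 over 9361 genes), so no pairing was seen. The labels do not say whether the numbers pair the libraries. With a replicate block, SX-682 changed 8824, 9150 and 9302 genes, and the imprinted genes called numbered the same in each contrast, while Ppp1r9a in Melan-A lost its call (adjusted p = 0.055). Of the values of named genes of the other lists, 1726 of 1795 kept their direction and side of the threshold, 69 fell below it and 0 turned. In Melan-A the SX-682 changes of Igf2, Dlk1 and Rian were not called in the fit of all 12 libraries. For Rian both SX-682 libraries lay below both controls, as they did for Igf2 on 10 to 24 counts.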

Other observations

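Between the 2 untreated B16 lines, some imprinted and IGF genes were present in a single one. Atp10a, an imprinted phospholipid transporter gene in some tissues, had 0 counts in all 4 B16F0 libraries, 1055 and 1204 in the B16F10 controls and 3094 and 3203 in the Melan-A controls. Igfbp3, which binds IGFs in the circulation, had 0 counts in the 4 B16F0 libraries, 3.40 CPM in untreated B16F10 and 36.6 in untreated Melan-A, where it rose with SX-682 by 1.16 ± 0.051 on the log2 scale (edgeR adjusted p = 8.72e-17). Igfbp4 ran the other way, at 262.9 CPM in untreated B16F0, 12.4 in B16F10 and 1.05 in Melan-A.

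Cdkn1c, the imprinted cyclin-dependent kinase inhibitor gene of the Kcnq1ot1 cluster, was named after its values were seen. It had 1043 and 1138 counts in untreated Melan-A, 105 and 104 in untreated B16F0, and 0 in both B16F10 controls. Its exons overlap Gm44732 on the opposite strand over 30.7% of their length.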
